A study of Mus musculus with 16 samples.

Results

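*Sp100*, *Sp110*, *Sp140*, *Pml*, *Phf11a*, *Phf11b*, *Phf11d*, *Samhd1* and *Samd9l* are 9 mouse genes whose products are known, for the most part, as proteins of the nucleus or as restriction factors against viruses. They are 9 of the 32285 genes counted in single-nucleus RNA-seq of the hippocampus, and they were chosen by name, with their rise in wild-type (WT) microglia after DMXAA already known. The values that compare DMXAA with vehicle in WT mice are therefore given as a description, without a p-value. The responses in *Ifnar1*-/- (KO) mice played no part in the choice and were tested. The resting levels of the 2 genotypes were also tested, although the WT vehicle libraries belong to the contrast known at the choice.

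The 16 libraries came from 16 male mice, with 4 mice in each combination of genotype and treatment. WT mice were C57BL/6, aged 2 months and 23 days, and KO mice, which lack *Ifnar1* and with it a chain of the type I interferon (IFN-I) receptor, were aged 3 months and 3 days. DMXAA, which activates the innate immune adaptor STING in mice, was given as repeated intraperitoneal injections, and vehicle was the solvent mixture alone. The deletion was present in every cell of the KO mice from birth. All KO animals were older than all WT animals, so genotype, age and cohort cannot be told apart in any comparison of KO with WT mice, of resting levels or of responses to DMXAA.

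Pml and Sp100 are the founding proteins of PML nuclear bodies, spherical structures that hold many other proteins and that can silence incoming viral genomes. Sp110 and Sp140 are relatives of Sp100 that read chromatin, and both are best known from work on macrophages. Phf11 proteins carry a PHD-type zinc finger, and the mouse has a small cluster of related *Phf11* genes. Samhd1 breaks down the deoxynucleotides that viruses need to copy their DNA, and Samd9l restrains poxviruses and cell growth. IFN-I binds its receptor on the cell surface and, through kinases and transcription factors such as Jak1, Tyk2 and Irf9, drives a set of interferon-stimulated genes to which many of these genes belong.

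On GRCm38, *Sp110* (minus strand, chr1:85576899-85598817), *Sp140* (plus strand, chr1:85600378-85645037) and *Sp100* (plus strand, chr1:85649988-85709998) are neighbours on chromosome 1. *Phf11a* (chr14:59276913-59297522), *Phf11b* (chr14:59320964-59341351) and *Phf11d* (chr14:59347407-59365470) lie in a row on the minus strand of chromosome 14, next to *Phf11c* (chr14:59380833-59395381), another copy that was not among the 9. *Pml* (chr9:58218076-58249786), *Samhd1* (chr2:157097533-157135265) and *Samd9l* (chr6:3372257-3399572) stand alone, all on the minus strand.

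The counts of some of these genes share sequence with other genes. Of the 50-base words in the annotated transcripts, 47.0% for *Phf11b* and 35.2% for *Phf11a* also occurred in another gene, mostly in each other. The shares were 38.1% for *Sp140*, 36.0% for *Sp110*, 8.09% for *Phf11d*, 5.86% for *Sp100*, 1.70% for *Samhd1*, 0.428% for *Samd9l* and 0.390% for *Pml*. Values of *Phf11a*, *Phf11b*, *Sp110* and *Sp140* are therefore uncertain as values of a single gene. *Sp100* and *Sp140* also overlap *Gm17017* on the opposite strand.

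The sequences just before the start site are shown for the members that rose most, because interferon-stimulated genes are known to carry GAAA repeats there, and *Phf11c* is added because in neurons it was level where its neighbour *Phf11d* rose. They are RefSeq promoters on GRCm38.p6, 120 bases up to the base before the RefSeq start, read 5′ to 3′ on the strand of the gene. Capitals mark matches on either strand of AANNGAAA or of a longer motif, the paired GAAA motif, in which 2 GAAA words are spaced by 2 bases of any kind. Both motifs were chosen after the sequences had been seen.

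Sp100, plus strand, chr1:85649868-85649987: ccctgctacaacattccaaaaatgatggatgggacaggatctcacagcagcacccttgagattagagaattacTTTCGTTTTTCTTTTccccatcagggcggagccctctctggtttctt
Pml, minus strand, chr9:58249787-58249906: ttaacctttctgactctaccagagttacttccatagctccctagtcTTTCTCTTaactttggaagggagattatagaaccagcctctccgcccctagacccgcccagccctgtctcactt
Phf11a, minus strand, chr14:59297523-59297642: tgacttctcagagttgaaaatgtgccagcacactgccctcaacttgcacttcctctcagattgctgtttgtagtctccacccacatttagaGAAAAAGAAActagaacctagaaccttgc
Phf11b, minus strand, chr14:59341331-59341450: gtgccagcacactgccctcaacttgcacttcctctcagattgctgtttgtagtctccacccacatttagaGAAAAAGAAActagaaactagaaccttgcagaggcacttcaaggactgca
Phf11d, minus strand, chr14:59365491-59365610: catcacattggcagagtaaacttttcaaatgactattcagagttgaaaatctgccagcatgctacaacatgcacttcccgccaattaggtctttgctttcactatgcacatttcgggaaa
Phf11c, minus strand, chr14:59393513-59393632: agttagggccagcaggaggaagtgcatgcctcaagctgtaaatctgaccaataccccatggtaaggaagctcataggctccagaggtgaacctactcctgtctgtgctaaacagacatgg
Samd9l, minus strand, chr6:3399572-3399691: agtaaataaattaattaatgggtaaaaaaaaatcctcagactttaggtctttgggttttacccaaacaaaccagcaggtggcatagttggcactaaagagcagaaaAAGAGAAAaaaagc

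All 9 members matched the RefSeq table, which gives windows of 300 bases from 250 before to 50 after a start, and *Sp100* and *Sp110* have 2 windows each. The paired GAAA motif was found in the windows of *Phf11a* and *Phf11b* and in no window of the other 7 members, and 3.44% of all 32851 promoter windows hold it. The shorter AANNGAAA, which overlaps the longer motif, was found in *Sp100*, *Sp110*, *Pml*, *Phf11a*, *Phf11b*, *Phf11d* and *Samd9l*, and 23.9% of all windows hold it. In *Phf11d* it spans the start itself, so it is not capitalised above, and in *Sp110* it lies after the start of the second window only. *Sp140*, *Samhd1* and *Phf11c* held neither motif in these windows. The *Phf11c* window (chr14:59393463-59393762) lies inside the annotated gene that was counted (chr14:59380833-59395381). The bases before the annotated 5′ end of *Phf11c* were therefore not searched. A match of letters is a description of the sequence and not evidence of a bound site.

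The files held 7869 to 12457 barcodes per library, 155084 in all, of which 111068 nuclei were kept with 33318906 to 52957854 unique molecular identifiers (UMIs) per library. Pairs of libraries shared 6 to 27 cell barcodes, with a median of 14.5 over 120 pairs. Nuclei were grouped into classes by markers, with the 9 members and other interferon-stimulated genes left out of the clustering. Microglia expressed 8 of 8 microglial markers in all groups, at a summed level of 9856 to 10573 CPM (UMI counts per library and class, scaled to a common total) in WT vehicle libraries and 6433 to 9627 CPM in WT DMXAA libraries. The microglial nuclei numbered 1323 in WT vehicle, 1466 in WT DMXAA, 955 in KO vehicle and 1069 in KO DMXAA. *Ifnar1* RNA was still counted in the KO libraries, and since 3′ counts are not resolved along the gene this does not check the genotype label. A gene is called here at an adjusted p under 0.05 (edgeR quasi-likelihood test with Benjamini-Hochberg adjustment over all genes tested in the class) and an absolute log2 fold change over 0.1.

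In WT microglia *Sp100*, named for the speckled pattern of its protein in the nucleus, was the member with the most UMIs after DMXAA. With vehicle, WT replicates 1 to 4 held 26.2, 30.3, 16.4 and 12.8 CPM of it. With DMXAA they held 532, 285, 261 and 306 CPM. Every DMXAA library lay above every vehicle library, and replicate 1 stood well above the other DMXAA libraries. The fitted log2 fold change was 4.03 ± 0.34 (SE), and 1025 UMIs were counted against 55.

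Its neighbours moved less. *Sp110*, a relative linked to control of intracellular bacteria in macrophages, was at 55.4, 44.7, 41.0 and 48.3 CPM with vehicle and at 127, 75.6, 38.6 and 69.9 CPM with DMXAA. The groups overlapped in replicate 3 of DMXAA, and the log2 fold change was 0.72 ± 0.25. *Sp140*, also a chromatin reader of immune cells, was at 43.1, 55.9, 41.0 and 28.4 CPM with vehicle and at 74.7, 46.3, 35.1 and 47.5 CPM with DMXAA. The *Sp140* groups overlapped, at a log2 fold change of 0.30 ± 0.25. Neither *Sp110* nor *Sp140* was called, although without WT DMXAA replicate 3 *Sp110* was called at 0.92 ± 0.21.

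*Pml*, which organises the nuclear bodies that hold Sp100, was at 49.3, 28.7, 37.7 and 22.7 CPM in WT vehicle microglia. With DMXAA it was at 184, 91.05, 53.9 and 96.2 CPM. The lowest DMXAA library lay just above the highest vehicle library, and the log2 fold change was 1.63 ± 0.29.

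The *Phf11* genes were low at rest. *Phf11a* had no UMI in any of the 4 WT vehicle libraries and was at 56.7, 17.0, 10.5 and 9.23 CPM with DMXAA. Its 68 UMIs against 0 make it at least 19.7-fold higher, taken against a floor of 3 counts over the vehicle group. *Phf11b* was at 1.54, 11.2, 14.8 and 7.10 CPM with vehicle and 102, 55.6, 17.6 and 33.0 CPM with DMXAA, a log2 fold change of 2.58 ± 0.56. *Phf11d*, the copy with the fewest shared words of these 3, went from 7.70, 14.4, 9.84 and 2.84 CPM to 153, 57.1, 25.8 and 58.01 CPM, a log2 fold change of 3.07 ± 0.53. In all 3 genes the DMXAA libraries lay above the vehicle libraries, with replicate 1 highest. *Phf11c* had 2.30 ± 1.54 CPM (mean ± SD, n = 4) with vehicle and 7.86 ± 3.30 CPM with DMXAA.

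*Samhd1*, the deoxynucleotide hydrolase, was well counted at rest, at 84.7, 97.4, 108 and 101 CPM in WT vehicle libraries. With DMXAA it was at 292, 176, 110 and 156 CPM, so the lowest DMXAA library lay barely above the highest vehicle library. Its log2 fold change was 0.92 ± 0.21. *Samd9l*, the restriction factor, had 5 UMIs in all in WT vehicle microglia, at 3.08, 3.19, 1.64 and 0.0 CPM. With DMXAA it had 160 UMIs, at 120, 49.4, 21.1 and 30.3 CPM, and its log2 fold change of 4.69 ± 0.68 was the largest of the 8 members that entered the fit.

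**Figure D1:**
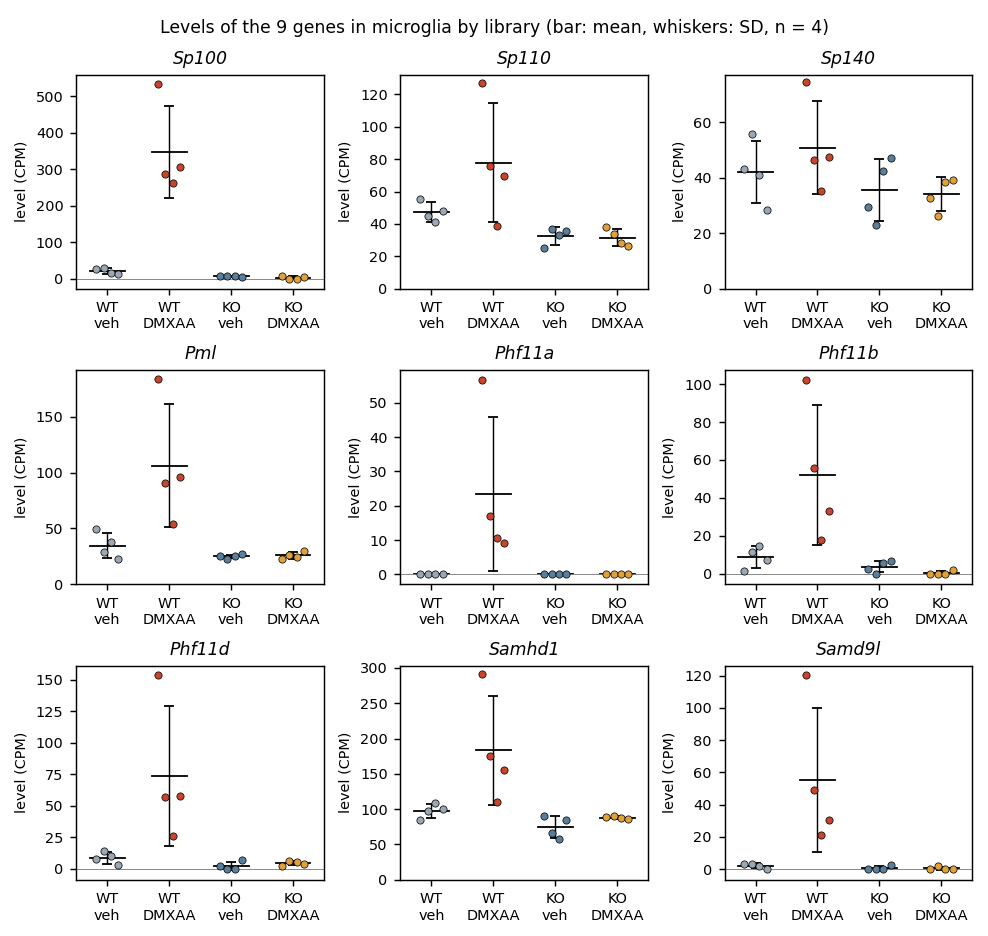
Level of each of the 9 genes in microglia, in CPM on a linear axis, with a point per library and a bar at the mean of each of the 4 groups (4 libraries each). In WT mice the DMXAA points lie above all vehicle points for 7 of the 9 genes and overlap with them for *Sp110* and *Sp140*, and in KO mice the groups overlap for all 9.

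Over the whole set, 8 of the 9 members had enough counts to be fitted in microglia and *Phf11a* did not. Of these 8, 6 were called higher (*Sp100*, *Samd9l*, *Phf11d*, *Phf11b*, *Pml* and *Samhd1*), where 1.2% of the 9002 genes tested were called higher. With *Phf11a*, 7 of the 9 lay above vehicle without overlap, where 2.29% of the genes tested did. Since the members were chosen with this contrast known, nothing is read from either share. The calls leaned on WT DMXAA replicate 1, the highest library for every member. Without it *Sp100* kept a log2 fold change of 3.80, *Samd9l* 4.01, *Phf11d* 2.47 and *Pml* 1.27 and all 4 were still called, while *Phf11b* (2.06) and *Samhd1* (0.65) were not. *Phf11b* also lost its call without WT vehicle replicate 1, 2 or 4, and *Samhd1* without WT DMXAA replicate 2 or any WT vehicle library. With only the 8 WT libraries in the fit, *Sp100* (4.05) and *Samd9l* (4.73) were called, while *Phf11d* (3.095), *Phf11b* (2.60), *Pml* (1.65) and *Samhd1* (0.94) were not. The summed level of microglial markers was also lower in WT DMXAA than in WT vehicle libraries, as given above, and its part in these values was not tested.

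Markers of other immune cells were counted in the same microglia. The summed level of the 8 border macrophage markers was 247 to 329 CPM in WT vehicle and 208 to 339 CPM in WT DMXAA microglia, with *Cd163*, *Lyve1* and *Pf4* at 0 in both. The 8 markers of T or NK cells summed to 479 to 559 CPM and 439 to 704 CPM, with *Cd3e*, *Cd3g*, *Nkg7* and *Trac* at 0. The part of such cells in the members' values was not tested.

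The share of microglial nuclei with at least 1 UMI of a member is given as a description. It moves with the level of the member and the depth per nucleus, so it is not the share of nuclei that responded. With every nucleus thinned to 500 UMIs, 1.01% ± 0.67 (SD, n = 4) of WT vehicle and 15.3% ± 6.95 of WT DMXAA microglia had a *Sp100* UMI. Without thinning the shares were 3.92% ± 1.55 and 43.6% ± 10.7. In oligodendrocytes, where the 4 WT vehicle libraries held 1 *Sp100* UMI in all, the share in WT DMXAA libraries was 0.0174% thinned and 0.092% unthinned, at a median of 2106 UMIs per nucleus against 1948 in microglia. Of the 1466 WT DMXAA microglia, 639 had a *Sp100* UMI and 254 had 2 or more, against 51 and 4 of 1323 in WT vehicle. With nuclei thinned in the same way, UMIs of any member were found in 12.6% ± 1.96 of WT vehicle and 33.6% ± 13.7 of WT DMXAA microglia, and UMIs of at least 2 different members in 0.371% ± 0.114 and 8.25% ± 7.74.

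The KO mice address the response to DMXAA without the IFN-I receptor, and no member was called in their microglia. *Sp100* was at 6.79, 6.88, 7.74 and 4.47 CPM in KO vehicle replicates and at 7.58, 0.0, 0.0 and 3.72 CPM in KO DMXAA replicates. Its groups overlapped, at a log2 fold change of -1.35 ± 0.76 (edgeR quasi-likelihood test, adjusted p = 0.900). The gene had 12 UMIs with vehicle and 5 with DMXAA. Since it entered the fit through the WT DMXAA libraries, this test says little. *Samhd1* was at 90.5, 66.5, 58.03 and 85.0 CPM with vehicle and 88.5, 90.1, 87.5 and 85.6 CPM with DMXAA, a log2 fold change of 0.18 ± 0.23 (edgeR adjusted p = 0.922). *Pml* was at 22.9 to 26.8 CPM with vehicle and 22.8 to 29.8 CPM with DMXAA, at 0.01 ± 0.36 on the log2 scale (edgeR adjusted p = 1.0).

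Several members were close to absent from KO microglia in either treatment. *Phf11a* had no UMI in the 8 KO libraries. *Samd9l* had 1 UMI in each treatment group, so no fold is given, and *Phf11b* had 7 UMIs in the vehicle group and 1 in the DMXAA group, a ratio of 0.131 with a 95% exact interval of 0.00288 to 1.02. *Phf11d* had 4 UMIs with vehicle and 9 with DMXAA, a log2 fold change of 0.93 ± 1.09. *Sp110* and *Sp140* differed by -0.11 ± 0.30 and -0.10 ± 0.29 on the log2 scale. *Sp100*, *Samd9l*, *Phf11b* and *Phf11d* had entered the fit through the WT DMXAA libraries, so their few UMIs in KO mice say little. None of the other fitted members was called. In KO microglia 0.0% of the 9002 genes were called in either direction by edgeR, although 443 had an unadjusted p under 0.05. By DESeq2 the number called was also 0.

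The other classes of KO mice gave no call for a member either. Over 10 units (9 classes and the whole tissue), 38 tests of a member in KO mice gave 0 calls by DESeq2 and 0 by the edgeR quasi-likelihood test, whose lowest adjusted p was 0.781. Tests of members that entered a fit through the WT DMXAA libraries are among the 38 and say little. Over all genes edgeR made 0 calls in each of these units and DESeq2 made 1, in choroid plexus, so the members do not stand apart from other genes in this. A single test had an unadjusted p under 0.05, which was *Samhd1* in fibroblasts (log2 fold change -0.56 ± 0.26, unadjusted p = 0.0481 and adjusted p = 0.794, edgeR). Shares of KO microglia with a UMI of a member, thinned to 500 UMIs per nucleus, were set side by side over 4 against 4 libraries in a two-sided exact permutation test, where the smallest possible p is 0.0286. Over the 7 members with a share above 0 the exact permutation p ranged from 0.314 to 0.943, and from 0.867 to 0.943 after Benjamini-Hochberg adjustment. A p of this size does not show that the groups are equal, and for *Sp100*, *Phf11b*, *Phf11d* and *Samd9l* the few UMIs set wide limits.

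The difference between the genotypes' DMXAA effects holds the WT contrast and is again a description. In microglia it was 5.37 ± 0.86 on the log2 scale for *Sp100*, 5.12 ± 1.54 for *Phf11b*, 2.14 ± 1.44 for *Phf11d*, 1.62 ± 0.46 for *Pml* and 0.74 ± 0.31 for *Samhd1*. Of these, *Sp100* was called, where 0.111% of the genes tested were called in that direction. Without KO vehicle replicate 3 the call was lost, at 5.27. The KO part of the *Sp100* value rests on 12 UMIs with vehicle and 5 with DMXAA. For *Phf11b* and *Phf11d* the KO part also rests on few UMIs. The KO values of *Sp100* and *Phf11b* were negative, which widens their differences beyond the WT effects, so the sizes of these differences say little. In the whole tissue *Sp100* differed by 3.17 ± 0.44 and was called, where 0.0844% were.

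**Figure D2:**
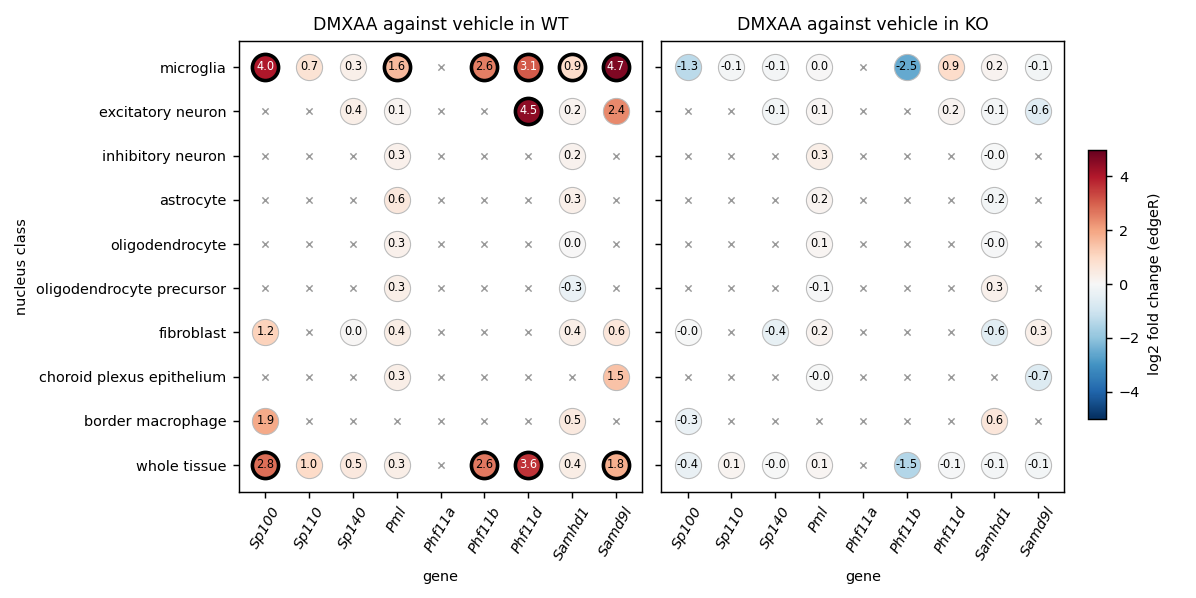
Log2 fold change of DMXAA against vehicle for each of the 9 genes in 9 nucleus classes and the whole tissue, in WT (left) and KO (right) mice, with colour for the fitted value, a ring for a called gene and a cross where a gene had too few counts. Rings appear in WT microglia (6 genes), WT excitatory neurons (1 gene) and WT whole tissue (4 genes), and none appears in KO mice.

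At rest, none of the fitted members was called by edgeR between KO and WT microglia. *Sp100* was at 12.8 to 30.3 CPM in WT vehicle and at 4.47 to 7.74 CPM in KO vehicle microglia, without overlap, a log2 difference of -1.54 ± 0.51 that missed the threshold (edgeR adjusted p = 0.0519). *Sp100* had entered this fit through the WT DMXAA libraries, so its test at rest says little. *Sp110* also did not overlap, at 41.0 to 55.4 against 24.9 to 36.7 CPM (-0.40 ± 0.28, edgeR adjusted p = 0.340). Of the 9002 genes, 18.6% were lower in KO without overlap. In this comparison 13.5% of the 9002 genes in microglia were called, in either direction. In fibroblasts *Samd9l* differed by -0.82 ± 0.28 and *Sp100* by -0.91 ± 0.33 on the log2 scale, with edgeR adjusted p-values of 0.0553 and 0.0690.

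Over the 10 units, 1 of 38 tests of a member was called between vehicle groups. These tests include *Sp100*, *Samd9l*, *Phf11b* and *Phf11d* in microglia, *Phf11d* in excitatory neurons and *Phf11b* and *Phf11d* in the whole tissue. All of these entered the fit through the WT DMXAA libraries. Their few UMIs in the vehicle groups say little. The 1 call was *Sp110* in the whole tissue, at 1.002 CPM in WT and 0.498 CPM in KO (-0.69 ± 0.26, edgeR adjusted p = 0.0394), where 26.6% of the 20153 genes were called lower. The call was lost by DESeq2 (-0.65), with size factors by the median of ratios (-0.64), with no filter on low counts (-0.70) and with no upper limit on genes per nucleus (-0.72). It was also lost without WT vehicle replicate 1 (-0.58), 2 (-0.70) or 4 (-0.64) and without KO vehicle replicate 1 (-0.56), 3 (-0.58) or 4 (-0.75). Among regions of excitatory neurons, *Samhd1* in dentate granule neurons was called higher in KO (0.38 ± 0.15, edgeR adjusted p = 0.0418), where 23.2% of the 14627 genes were. Its CPM there were alike, at 6.57 in KO and 6.59 in WT, because the fit rescales libraries by TMM. This scaling moved every gene of KO against WT up by 0.47 on the log2 scale in excitatory neurons, 0.32 in the whole tissue and 0.14 in microglia, whereas it moved DMXAA against vehicle by less than 0.1 in either direction in these 3 units. The sign of the *Samhd1* difference therefore rests on the scaling. *Pml* in excitatory neurons was at 12.7 ± 1.43 CPM in WT and 7.37 ± 0.374 CPM in KO vehicle libraries, without overlap, and after the scaling its log2 difference of -0.32 ± 0.14 missed the threshold (edgeR adjusted p = 0.0722).

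In WT excitatory neurons (EN) *Phf11d* was the single member called. *Phf11d* was at 0.146, 0.0373, 0.0801 and 0.108 CPM in WT vehicle EN and at 5.25, 1.51, 0.759 and 1.02 CPM with DMXAA, with no overlap and with replicate 1 far above the rest. It had 213 UMIs against 10, a log2 fold change of 4.46 ± 0.59, and it was called, where 0.113% of the 17628 genes tested were called higher. *Phf11d* entered this fit through the WT DMXAA libraries, where it was high, so nothing is read from the call. Without WT DMXAA replicate 1 it was still called, at 3.56 on the log2 scale. With only the 8 WT libraries in the fit it was not called, at 4.47, and with classes from marker UMIs no member was. *Samd9l* was at 0.728, 0.261, 0.521 and 0.864 CPM with vehicle and at 7.17, 2.44, 1.08 and 1.74 CPM with DMXAA. Its groups did not overlap either, as in 0.703% of the genes tested, yet at 2.40 ± 0.47 on the log2 scale it was not called. Without replicate 1 of DMXAA this value was 1.63, also not called.

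The other members were level or too rare in EN. *Pml*, with 1355 UMIs in WT vehicle and 1353 in WT DMXAA, had a log2 fold change of 0.13 ± 0.14, and *Samhd1*, with 721 and 750 UMIs, one of 0.19 ± 0.14. *Sp140* was at 0.35 ± 0.35. *Sp100* had 16 UMIs with vehicle and 39 with DMXAA, at 0.148 ± 0.0660 and 0.338 ± 0.208 CPM, and was too rare to be fitted. *Phf11c*, next to *Phf11d* on chromosome 14, had 116 and 111 UMIs and a log2 fold change of 0.06 ± 0.37.

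The proportion of *Phf11d* to *Sp100* was not alike in EN and microglia. In WT DMXAA EN there were 213 UMIs of *Phf11d* and 39 of *Sp100*, whereas in WT DMXAA microglia there were 214 of *Phf11d* and 1025 of *Sp100*. In nuclei, 187 of 12879 WT DMXAA EN had a *Phf11d* UMI, 22 of them with at least 2, against 9 of 13247 in WT vehicle. The microglial markers summed to 69.6 to 90.7 CPM in WT vehicle EN and to 30.4 to 122 CPM in WT DMXAA EN, and the part of microglial RNA in the EN values was not tested.

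Within EN, regions differed in their *Phf11d* counts. In dentate granule neurons *Phf11d* was at 12.7, 2.58, 1.39 and 1.43 CPM with DMXAA, 152 UMIs against 5 with vehicle, and the log2 fold change was 4.89 ± 0.84. It was called there, where 0.13% of the genes tested were called higher. In this region too it entered the fit through the WT DMXAA libraries, so nothing is read from the call. In CA1 pyramidal neurons 16 UMIs were counted against 2, a ratio of 6.93 with an exact 95% interval of 1.63 to 62.2. The WT DMXAA libraries there were at 1.19, 1.14, 0.0 and 1.39 CPM. Neurons of subiculum or cortex had 15 UMIs against 2. Thus 152 of the 213 UMIs in EN lay in dentate granule neurons, and this division between regions was not tested. Dentate granule and CA1 neurons lay furthest apart in replicate 1 (12.7 against 1.19 CPM) and were level in replicate 4 (1.43 against 1.39 CPM).

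*Samd9l* was spread over all 3 regions. In dentate granule neurons it was at 5.14, 1.81, 0.540 and 1.30 CPM with DMXAA, with 75 UMIs against 4. In CA1 pyramidal neurons it was at 7.14, 1.70, 1.08 and 1.12 CPM, with 50 UMIs against 2, a ratio of 21.7 with an interval of 5.69 to 184. In subiculum or cortex it was at 9.94, 4.17, 2.12 and 3.86 CPM, with 128 UMIs against 49 and a log2 fold change of 1.91 ± 0.43. Replicate 1 was the highest DMXAA library in each region. No member was called higher in CA1 pyramidal neurons or in subiculum or cortex, where 0.0465% and 0.0214% of the genes tested were.

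**Figure D3:**
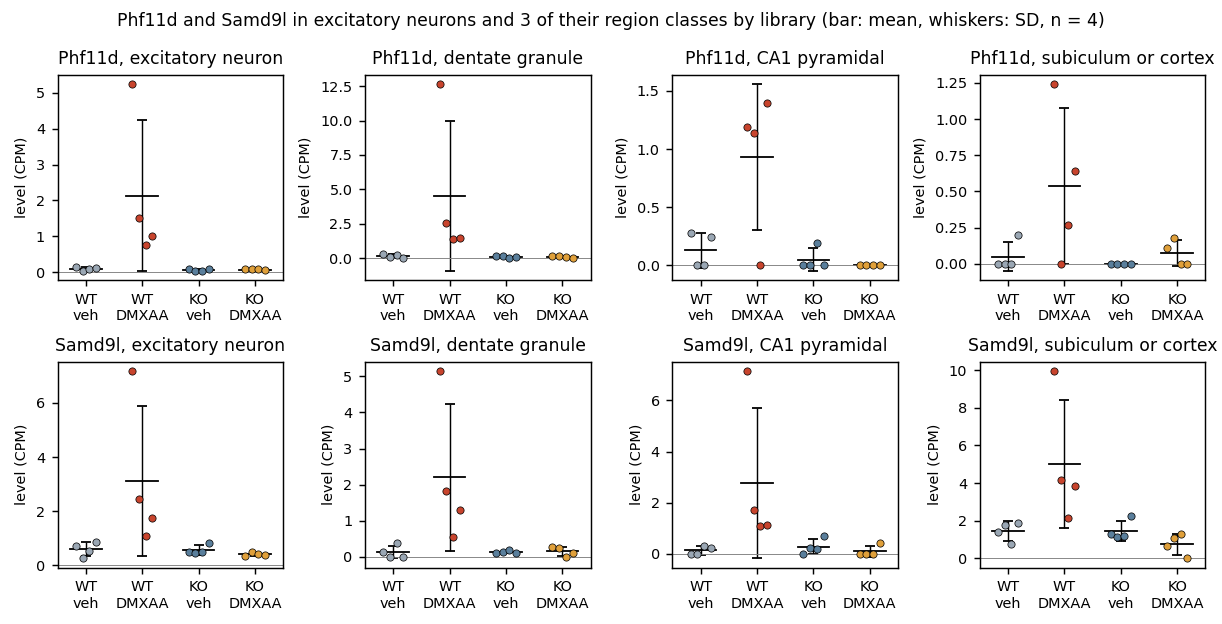
Level of *Phf11d* and *Samd9l* in CPM in excitatory neurons and in 3 of their regions, with a point per library and a bar at the group mean. WT DMXAA libraries mostly stand above the other groups, with replicate 1 mostly highest, and KO DMXAA points lie among the vehicle points. For *Phf11d* in CA1 pyramidal neurons, WT DMXAA replicate 4 is highest (1.39 CPM). Replicate 3 there, at 0.0 CPM, lies below WT vehicle replicates 1 (0.277 CPM) and 4 (0.240 CPM).

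In KO EN both genes stayed rare. *Phf11d* had 6 UMIs with vehicle and 7 with DMXAA, and *Samd9l* was at 0.501, 0.456, 0.502 and 0.839 CPM with vehicle and 0.344, 0.484, 0.418 and 0.371 CPM with DMXAA. No member was called in KO EN by edgeR or DESeq2. Nor was any other gene (0.0%), although by edgeR 992 genes had an unadjusted p under 0.05.

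In astrocytes, oligodendrocytes and their precursors 2 of the 9 members, *Pml* and *Samhd1*, had enough counts in the fit of all libraries, and neither was called. *Samd9l* is given for its counts. In oligodendrocyte precursors it was at 4.65, 5.09, 3.12 and 3.20 CPM in WT vehicle and at 34.8, 16.7, 7.37 and 28.3 CPM in WT DMXAA libraries, 15 against 78 UMIs, with no overlap. The gene had too few counts for the fit of all libraries there. Of the 16 fits that each left out 1 library, 13 held it and 10 called it, at 2.45 to 2.72 on the log2 scale (without WT vehicle replicate 2, WT DMXAA replicate 3 or any of the 8 KO libraries). *Samd9l* entered those fits through the WT DMXAA libraries, where it was high, so nothing is read from these calls. In astrocytes it had 11 UMIs with vehicle and 44 with DMXAA, of which WT DMXAA replicate 1 was at 10.7 CPM and the other 3 at 2.38 to 3.71 CPM. In oligodendrocytes it had 1 and 15 UMIs, a ratio of 13.4 with an interval of 2.07 to 566. The genes called higher made up 0.184% of those tested in oligodendrocyte precursors, 0.217% in astrocytes and 0.0165% in oligodendrocytes. In inhibitory neurons 2 members were fitted, and neither they nor any other gene (0.0%) was called. *Sp100* stayed rare, with 2 and 11 UMIs in astrocytes.

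At the borders of the brain *Sp100* and *Samd9l* were present before treatment. In fibroblasts *Sp100* was at 93.5, 75.8, 47.0 and 37.3 CPM in WT vehicle and at 231, 85.4, 93.8 and 145 CPM in WT DMXAA libraries. The groups overlapped and the gene was not called, at 1.16 ± 0.30 on the log2 scale, but it was called without WT DMXAA replicate 3, at 1.32 ± 0.29. *Samd9l* in fibroblasts was at 88.3 CPM with vehicle and 130 CPM with DMXAA on average (0.60 ± 0.27). In choroid plexus epithelium, with 3 libraries in each WT group, *Samd9l* was at 13.97 and 43.3 CPM on average (1.48 ± 0.44). None of these was called, while 0.0% of the genes in fibroblasts and 0.208% in choroid plexus were called higher.

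The class named border macrophage from its markers needs care. In WT DMXAA libraries its own markers summed to 218 to 1871 CPM, against 5264 to 5862 CPM in WT vehicle, and 199 of its 263 WT DMXAA nuclei came from replicate 3. The markers thus go against the name in WT DMXAA mice, and its *Sp100* value, a log2 fold change of 1.88 ± 0.76 over 3 against 2 libraries, is a value of that cluster and not of border macrophages. No member was called in it, where 0.166% of the genes tested were called higher. Endothelial nuclei were too few to be fitted. In WT DMXAA mice 25 of them lay in replicate 3, which held *Sp100* at 368 CPM, between the WT vehicle libraries with 7 and 10 such nuclei, at 155 and 443 CPM.

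Over the whole tissue, where all nuclei of a library were summed, the picture mixes these classes. *Sp100* rose from 229 to 1518 UMIs (2.79 ± 0.31 on the log2 scale), *Phf11d* from 42 to 497 (3.62 ± 0.52), *Phf11b* from 29 to 174 (2.63 ± 0.49) and *Samd9l* from 306 to 1014 (1.80 ± 0.33). These 4 were called, where 0.481% of the 20153 genes were called higher. *Phf11d* and *Phf11b* entered this fit through the WT DMXAA libraries, so nothing is read from their calls. Without WT DMXAA replicate 1 *Phf11d* was at 2.81 and still called, and *Phf11b* was at 2.09 and was not. *Phf11b* also lost its call without WT vehicle replicate 1 (2.43), 2 (2.74) or 4 (2.54), and *Samd9l* without WT vehicle replicate 1 (1.76), 3 (1.70) or 4 (1.82). With only the 8 WT libraries *Sp100* alone was called, while *Phf11d* (3.62), *Phf11b* (2.63) and *Samd9l* (1.80) were not. *Phf11a* was too rare for the fit of all libraries, and 13 of the 16 fits that left out 1 library held and called it. The gene entered those fits through the WT DMXAA libraries, so nothing is read from these calls. *Phf11a* went from 1 UMI to 79, a ratio of 78.0 with an exact interval of 13.6 to 3121. *Pml* (0.32 ± 0.14) and *Samhd1* (0.39 ± 0.10) were not called. In such a sum, more nuclei of a class and more RNA per nucleus cannot be told apart.

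The source of each member's UMIs differed between genes and shifted with treatment. Of the *Sp100* UMIs, 24.0% lay in microglia and 52.4% in fibroblasts in WT vehicle mice, and 67.5% and 16.2% in WT DMXAA mice. For *Phf11d*, 52.4% lay in microglia and 23.8% in EN with vehicle, and 43.1% and 42.9% with DMXAA. *Samd9l* was mostly fibroblastic at rest (54.9%), and after DMXAA it was divided over EN (30.5%), fibroblasts (23.2%) and microglia (15.8%). *Phf11b* lay mostly in microglia in both groups, at 75.9% and 86.2%.

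**Figure D4:**
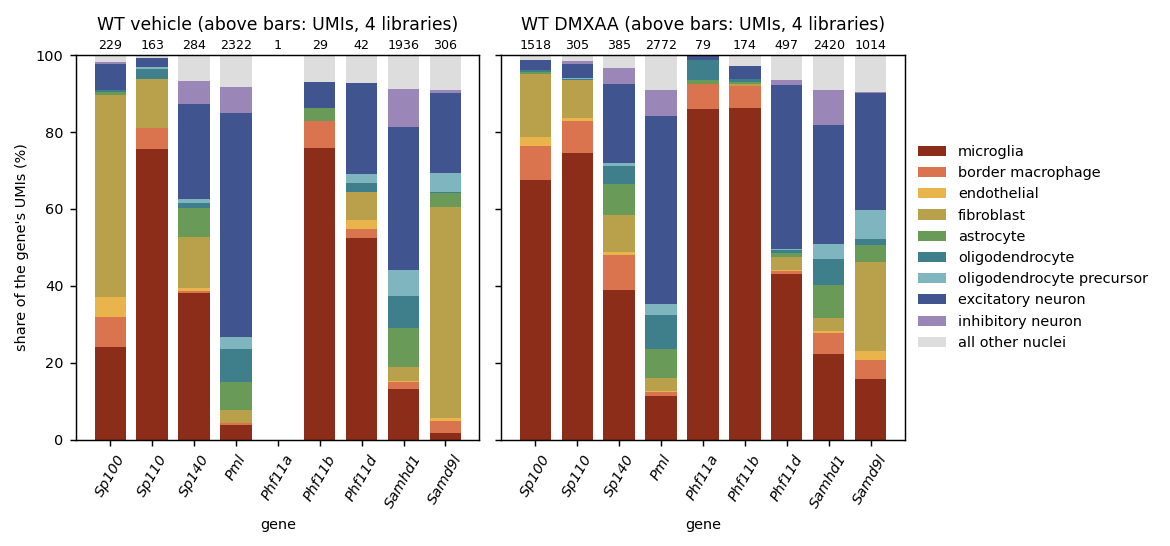
Share of each gene's UMIs, in percent, by nucleus class in WT vehicle and WT DMXAA mice, with the 4 libraries of a group added. *Phf11a* with vehicle had 1 UMI and is not drawn, and the microglial part of *Sp100* grows from 24.0% to 67.5%.

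Resting levels across classes are given for *Sp100*, *Samhd1* and *Pml*. *Sp100* in WT vehicle mice was at 63.4 ± 25.9 CPM in fibroblasts, 57.3 ± 42.4 CPM in border macrophages (2 libraries) and 21.4 ± 8.20 CPM in microglia, and under 1 CPM in the neurons and macroglia, with 0.148 CPM in EN and 0.168 CPM in astrocytes. Border macrophages did not differ beyond their spread from fibroblasts or from microglia. *Samhd1* was found in every class, at 172 ± 65.1 CPM in border macrophages (2 libraries), 97.8 ± 9.84 CPM in microglia, 37.7 ± 6.53 CPM in fibroblasts, 35.4 ± 4.68 CPM in oligodendrocyte precursors, 19.4 ± 3.51 CPM in astrocytes and 6.72 ± 0.579 CPM in EN. The neighbours in this order that did not differ beyond their spread were border macrophages and microglia, and fibroblasts and oligodendrocyte precursors.

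*Pml* was similarly broad, at 42.2 ± 5.53 CPM in fibroblasts, 34.6 ± 11.6 CPM in microglia and 12.7 ± 1.43 CPM in EN. In KO vehicle mice the highest *Sp100* level was found in endothelial cells, at 118 ± 28.1 CPM, where WT vehicle libraries had too few nuclei for a value. Levels are in CPM within a class and are not compared between genes, whose lengths differ.

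**Figure D5:**
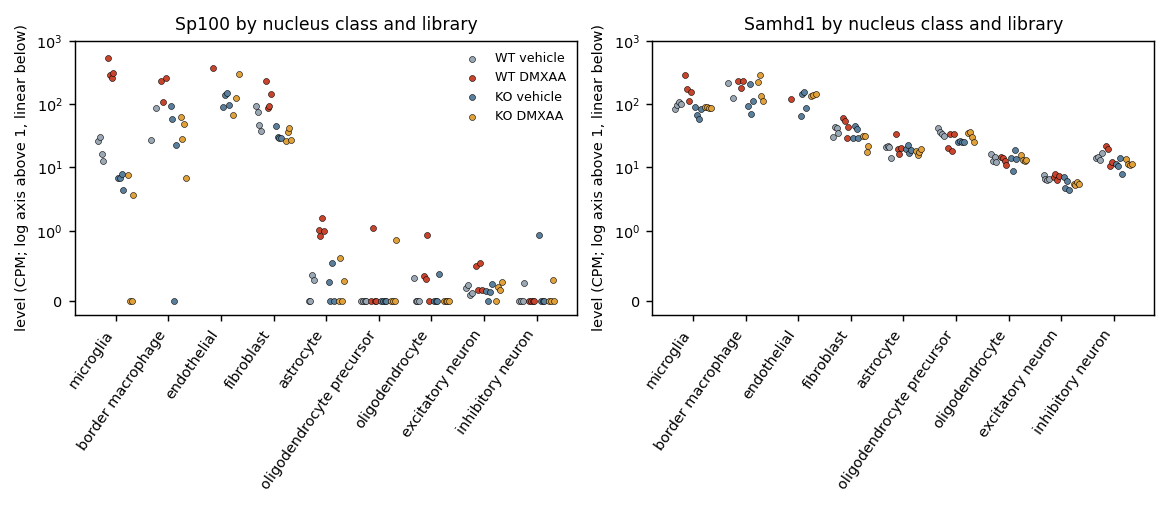
Level of *Sp100* and *Samhd1* in CPM by nucleus class in the 4 groups, on an axis that is linear near 0 and logarithmic above, with a point per library. *Sp100* is low outside microglia, fibroblasts and the small vascular and macrophage classes, and *Samhd1* is present in all classes.

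No partner of Pml and Sp100 passed the test for DMXAA. Of 19 other genes of PML nuclear bodies (such as *Daxx* and *Atrx*), all 19 were tested in microglia and 0 were called for DMXAA in WT or KO mice, with a median log2 fold change of 0.03 in WT against 0.02 over all genes tested and of -0.05 in KO against -0.01. The same list had 0 calls for DMXAA in EN and in the whole tissue. By edgeR, 4 of the 19 in WT and 0 in KO microglia had an unadjusted p under 0.05, as had 875 and 443 of the 9002 genes tested. Between the vehicle groups 3 of the 19 were called higher in KO microglia and 0 lower, where 686 of the 9002 genes tested were called higher. The 3 were *Zbtb16* (2.42 ± 0.58), *Hira* (0.64 ± 0.20) and *Crebbp* (0.34 ± 0.10).

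Of 18 genes that supply deoxynucleotides, the substrate of Samhd1, 8 could be tested in microglia and 0 were called by edgeR (1 at an unadjusted p under 0.05), with a median of 0.13 against 0.02 in WT mice. Of 11 genes of the IFN-I signal itself, 9 were tested in microglia, and 4 were called higher in WT mice, where 1.2% of all genes tested were, among them *Usp18* (4.22 ± 0.61), *Stat2* (2.57 ± 0.34) and *Irf9* (1.24 ± 0.30). In EN all 11 were tested and 4 were called higher, where 0.113% of all genes tested were, among them *Usp18*. In KO mice 0 of them were called for DMXAA in microglia by edgeR, with 1 at an unadjusted p under 0.05.

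The genes most like a member over the 16 microglial libraries were found by the root mean square difference of centred log2 CPM over 8994 genes, a smaller value being more alike. For *Sp100* they were *Usp18* (0.846), *Slfn5* (0.881) and *Slfn2* (0.930), where the median gene was at 2.56. For *Pml* they were *Trim30d* (0.277), *Znfx1* (0.288) and *Tap1* (0.309), with the median gene at 0.909. For *Samhd1* they were *Trafd1* (0.167), *Apobec3* (0.240) and *Tor1aip2* (0.241), with the median gene at 0.641. For *Phf11d* they were *Cd244a* (0.742), *Parp14* (0.742) and *H2-Q4* (0.790), with the median gene at 1.79. The libraries share depth and treatment, so this likeness is a description.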

How the data were processed

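Nuclei of hippocampus from 16 male mice, 1 library each, were profiled by the authors with a 3′ droplet kit. As deposited, the matrices hold raw UMI counts, whole numbers for each gene in each barcode. Per the file headers they come from Cell Ranger 6.1.2, whereas the submitters' processing notes name Cell Ranger 3.1.0 and Seurat 3.0, with the mm10 genome. The authors counted reads on unspliced RNA too, and positions and transcript words come from the GRCm38 annotation by gene identifier.

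Nuclei were kept with 200 to 4000 genes and at most 5% mitochondrial UMIs. Doublets, taken to make up 0.8% for every 1000 nuclei within these limits, were scored against simulated ones and left out. In all, 27851 barcodes exceeded the upper limit. Counts scaled to 10000 per nucleus were logged, and 2000 variable genes, 30 components and 20 neighbours were passed to the Leiden method (resolution 0.5; leidenalg 0.10.2 under Python 3.11.15), which gave 28 clusters. The members and the interferon lists were left out of the clustering. Clusters were named from marker lists, with thresholds set after the clusters had been seen, and 6 stayed unnamed. A name needed 5 markers, each found in over 10% of nuclei at over 2 times its usual level. The names are thus rebuilt (a class is microglia-like, not the authors' microglia), which may set values apart from those of the study.

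For each class, the UMIs of a library were added up if it held 20 nuclei or more. A two-sided quasi-likelihood F test (edgeR 4.0.16, R 4.3.3, with TMM scaling and filterByExpr) was run on the 4 groups of 4 libraries together, with Benjamini-Hochberg adjustment over all genes of a class. The calls needed an adjusted p under 0.05 and a log2 fold change beyond 0.1 in size. The fit was tested on simulated data with known changes. CPM are per library and class. Where a group had 0 counts, 3 counts for the whole group stood in for it and the fold is a lower bound, and where it had 1 to 3 counts the ratio has an exact 95% interval. Intervals and floors cover counting error only. For shares of nuclei, with each nucleus thinned to 500 UMIs, the test was an exact permutation of the libraries, two-sided. DESeq2 1.42.0, other scalings, filters, class rules and each library left out were tried as alternatives.

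The text names all 9 members, and from each gene list only genes called or the 2 most abundant. The members and lists were chosen with earlier results of these data known. *Phf11c* and the promoter motifs were added after values or sequences had been seen. Some genes of these lists that meet this rule are not reported here.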

Additional observations from a re-analysis of the deposited data

Results flagged for a closer look

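Of 65 groups of 4 libraries examined for a library far from the others, 10 had one, where chance gives about 1 in 20 groups. In WT DMXAA mice it was replicate 1 each time. *Sp100* in microglia was at 532 CPM there, with the other libraries at 261 to 306 CPM. *Phf11a* in microglia was at 56.7 CPM (others 9.23 to 17.0), *Phf11d* in excitatory neurons at 5.25 CPM (others 0.759 to 1.51) and *Samd9l* in astrocytes at 10.7 CPM (others 2.38 to 3.71).

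In KO libraries the distances rest on few UMIs. In microglia *Phf11b* was at 1.86 CPM in KO DMXAA replicate 4, and *Samd9l* was at 2.24 CPM in KO vehicle replicate 4 and at 2.00 CPM in KO DMXAA replicate 2, with the other libraries of each group at 0. In KO vehicle libraries *Samd9l* was at 0.839 CPM in excitatory neurons of replicate 4 (others 0.456 to 0.502) and at 0.0 CPM in astrocytes of replicate 2 (others 0.535 to 0.596). *Sp100* was at 44.2 CPM in fibroblasts of KO vehicle replicate 1 (others 28.8 to 30.6).

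The DMXAA effect differed between the genotypes for *Sp100*, by 5.37 on the log2 scale in microglia and by 3.17 in the whole tissue, as a description that includes the WT contrast. In microglia the KO part of this value rests on few UMIs, so its size says little. In nuclei of clusters without a class name, which enter no comparison of classes and count only in the whole tissue, WT DMXAA libraries had 16 UMIs of *Sp100* against 2 in WT vehicle libraries, and 24 UMIs of *Phf11d* against 0.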

How the results depend on the processing

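For DMXAA in KO mice, 0 members were called under all 7 alternatives and without any of the 16 libraries. In WT microglia 6 members were called, 2 with only the 8 WT libraries in the fit and 4 to 7 without single libraries. In WT excitatory neurons 1 was called, 2 with no filter on low counts, with DESeq2 or with no upper limit on genes per nucleus, 0 with only the 8 WT libraries or with classes from marker UMIs, and 1 to 2 without single libraries, with 2 (*Samd9l* joining) without WT DMXAA replicate 3 or 4. In the whole tissue 4 became 7 with DESeq2 and 1 with only the 8 WT libraries, and 3 to 5 without single libraries. In the other 7 classes together 0 became 3 with no filter, 1 with DESeq2 and 1 with classes from marker UMIs, and 0 to 2 without single libraries (10 of the 16 fits called *Samd9l* in oligodendrocyte precursors). Between the vehicle groups 1 became 2 with size factors by the median of ratios, 4 with no filter, 2 with DESeq2, 5 with only the 8 vehicle libraries, 2 with doublets kept, 3 with no upper limit and 3 with classes from marker UMIs, and 0 to 8 without single libraries, with *Sp110* in the whole tissue, the 1 called, itself not called under the first 3 of these settings or with no upper limit. For the difference between genotypes 2 became 5 with DESeq2 and 1 with classes from marker UMIs, and 1 to 3 without single libraries, with the *Sp100* call in microglia lost without KO vehicle replicate 3. The thinned share of 15.3% of WT DMXAA microglia with *Sp100* was 43.6% unthinned and 26.6% at 1000 UMIs, as deeper sampling finds more. The other causes were not tested.

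Of 313 alternatives for 14 single values, 277 kept direction and call, 36 lost the call and 0 reversed. In microglia *Samhd1* lost its call without any of 6 single libraries (0.65 to 0.97 in those 6 fits) and *Phf11b* without any of 4 (2.06 to 2.73). No paired analysis was possible because replicate numbers were given in accession order and pair no animals. Border macrophages and the whole tissue have no value for classes from marker UMIs. Few UMIs limit *Phf11a*, *Phf11b* and *Phf11d* outside WT DMXAA libraries. The same holds for *Samd9l* in microglia outside WT DMXAA libraries and for *Sp100* in KO microglia.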
